A study of Gallus gallus with 27 samples.

Results

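The subject is a set of 897 chromatin intervals, 0.640% of the 140062 intervals counted by the authors. Late in the series they were more accessible in both neural crest populations than in negative cells of the same stage. Their early ratio of double-positive over negative cells lay within set bounds, which still allowed an early difference. The intervals were chosen from the measured values. Counts were scaled by each library's total and written as CPM, the usual per-depth unit of read counts, the 3 replicates of a group were averaged, and 1 CPM was added. At stage HH25 an interval had to reach a ratio of at least 2 for double-positive over double-negative cells and at least 1.75 for E2-only over double-negative cells, with double-positive over E2-only above 0.67 and below 1.5. At HH18 its ratio of double-positive over double-negative cells had to lie from 0.67 to below 2. The first condition alone left 14766 intervals, the second 6600, the third 2396 and the last 897.

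The study sorted cells from the vagal region of wild-type chick embryos and read open chromatin by ATAC-seq, in which a transposase inserts sequencing adapters into accessible DNA. All 6 groups used here came from embryos electroporated at HH8/9 with the reporters NC2:citrine and E2:citrine, so the negative cells come from embryos given the same treatment. Whether a negative cell had taken up the reporters cannot be told from the absence of signal. There were 3 biological replicates in each group: at HH25 double-positive cells (NC2+ and E2+), E2-only cells and cells negative for both, and at HH18 the E2-only, the double-positive and the double-negative cells. Stages are those of Hamburger and Hamilton, HH18 being the earlier. The groups are defined by reporter signal after a transient electroporation, and both reporters are labelled as driving citrine. How their signals were separated in the sort, and how many embryos stand behind a library, is stated in none of the sources used here. An interval open in more cells and an interval more open per cell cannot be told apart in these sorted pools.

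Vagal neural crest cells leave the dorsal neural tube and are known as the source of the enteric nervous system, and they also give peripheral neurons, glia and mesenchymal derivatives. NC2 and E2 are known enhancers of the transcription factor genes FOXD3 and SOX10, both active in neural crest. Enhancers used by a cell are generally accessible in its chromatin, and distal elements open and close as cells take on a fate. No genome or annotation of the build of these coordinates, galGal5, was used here. Intervals are therefore given by position, without genes or sequence, and the sorted cells could not be checked at marker genes.

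Library totals ran from 992341 counts in HH18 double-negative replicate 2 to 6976050 in HH18 E2-only replicate 1, with the second lowest at 2586375. A count of 3, the limit that a count of 0 allows, corresponds to 0.430 to 3.02 CPM, and the lowest deposited count in every library was 1, which may stand for 0. Of the 897 intervals, 364 held that lowest count in HH18 double-negative replicate 2, and 0 to 163 did in the other libraries. All 897 were 200 bp wide. They lay low in the table: with all intervals ranked by mean accessibility into 4 equal bins, they numbered 275, 299, 207 and 116 from the lowest bin to the highest.

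The ratios of the rule shrank in replicates that a choice from the others had not seen. When replicate 1 was left out of every group, the rule picked 1613 intervals with a median HH25 double-positive over negative ratio of 2.41 in the 2 replicates used and 1.40 in replicate 1, where all intervals had a median of 0.938. With replicate 2 left out the 1068 intervals picked had a median of 1.77 in it, and with replicate 3 left out the 1144 intervals picked had 1.92, beside 0.9995 and 0.9983 over all intervals. For HH25 E2-only over negative cells the medians in the replicate left out were 1.34, 1.65 and 1.57. In the replicate left out, the double-positive over negative ratio was above 1 at 72.6%, 85.9% and 87.3% of the picked intervals. Over all intervals these shares were 45.6%, 49.6% and 49.7%. For E2-only over negative cells the shares were 74.9%, 83.8% and 82.7%, against 52.1%, 57.0% and 55.1% of all intervals. The whole rule was passed again in the replicate left out by 94 (5.83%), 109 (10.2%) and 108 (9.44%) of the picked intervals. Of all intervals 1.03%, 1.67% and 1.70% passed it there. The direction at HH25 was thus present in unseen libraries for most picked intervals, at a smaller size than in the libraries that chose them. Only 496 (30.8%), 449 (42.0%) and 457 (39.9%) of the picked intervals belonged to the set chosen from all replicates. The shares above therefore describe lists that lay mostly outside that set, and its own members were not tested apart. Membership of a single interval was not stable.

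**Figure D1:**
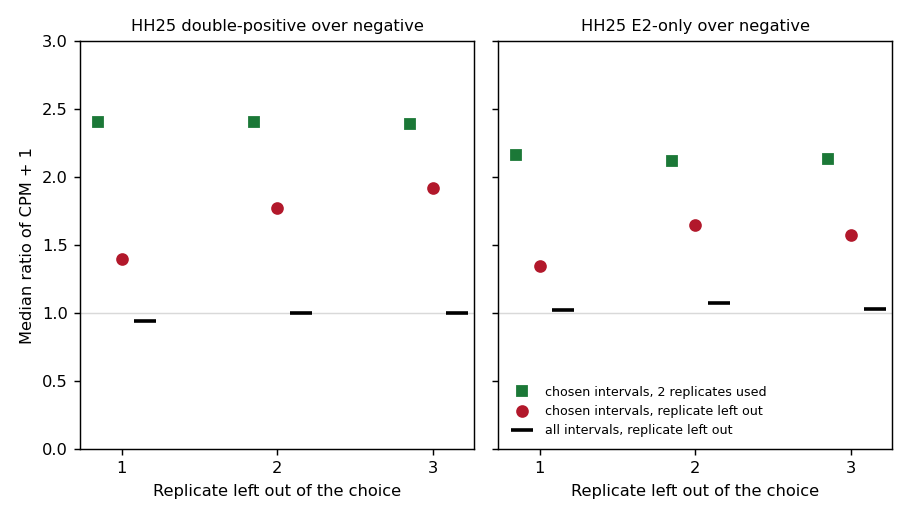
Median ratio of CPM + 1 for the intervals chosen from 2 replicates (green squares, in those 2; red circles, in the replicate left out) and for all intervals (black bars), by the replicate left out. Red circles sit between 1.34 and 1.92, below the squares and above the black bars in all 6 positions.

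The rule's margins show how fine the boundary is. The nearest intervals inside the double-positive threshold, on chromosomes 3 and 4, had ratios of 2.0004 and 2.0009, and the nearest outside, on chromosomes 1 and 3, had 1.9999 and 1.9993. For E2-only cells the nearest inside were at 1.751 for both and the nearest outside at 1.750 and 1.749. At the lower bound of double-positive over E2-only they were 0.678 and 0.683 inside and 0.669 and 0.655 outside, and at the HH18 lower bound 0.677 for both inside and 0.666 and 0.665 outside.

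From here CPM values use library totals scaled by the TMM method, which sets the bulk of intervals level between libraries. The rule used unscaled totals. With TMM-scaled totals it found 672 intervals, of which 576 were among the 897, so membership depends on the scaling. The median of the 897 intervals was 6.03, 6.12 and 6.42 CPM in the 3 HH25 double-positive libraries and 5.01, 4.62 and 4.95 CPM in the HH25 E2-only libraries, against 2.14, 1.59 and 1.63 CPM in the HH25 double-negative libraries. The HH25 order follows from the rule and is a description. Of the 880 intervals that passed a filter on low counts, 875 by edgeR's quasi-likelihood test (99.4%, against 14.5% of all tested intervals) were called higher in HH25 double-positive and 550 (62.5%, against 5.35%) in HH25 E2-only than in HH25 double-negative cells, from which nothing is read. At HH18 the medians were 1.92, 2.60 and 2.22 CPM in E2-only cells and 3.61, 3.35 and 3.65 CPM in double-positive cells, against 2.41, 2.00 and 2.39 CPM in double-negative cells. The rule used the HH18 double-positive and double-negative libraries but not the HH18 E2-only ones. The HH18 E2-only medians overlapped those of the HH18 double-negative libraries and lay below all 3 double-positive ones. Group means of these medians were 6.19 ± 0.200 CPM in HH25 double-positive, 4.86 ± 0.212 in HH25 E2-only, 1.79 ± 0.307 in HH25 double-negative, 2.24 ± 0.344 in HH18 E2-only, 3.54 ± 0.160 in HH18 double-positive and 2.27 ± 0.232 in HH18 double-negative cells (SD, n = 3 each). Over all intervals the library medians ran only from 3.75 to 4.38 CPM. By edgeR's test 166 of the 880 (18.9%, against 18.3% of all tested intervals) were called higher in HH18 double-positive than in HH18 double-negative cells. None was called lower, against 13.7% of all tested intervals, and the median log2 fold change was 0.61. The rule bounded this ratio, so nothing is read from these counts.

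**Figure D2:**
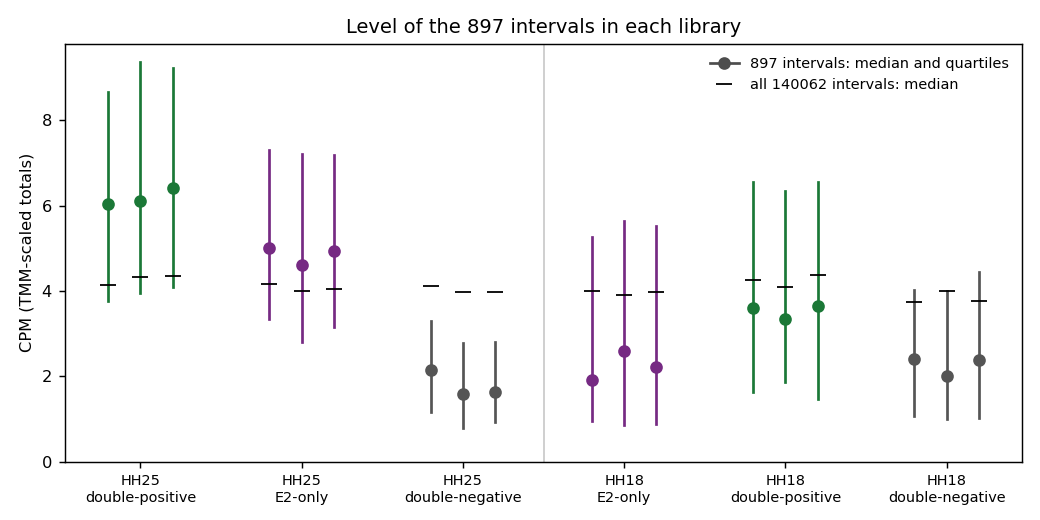
CPM of the 897 intervals in each of 18 libraries (points, medians; vertical lines, quartiles) by stage and sorted population, with the median of all intervals as black bars. The HH25 crest libraries have medians of 4.62 to 6.42 CPM, above all others, and the HH18 E2-only libraries have 1.92 to 2.60 CPM, level with the negative cells.

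The stage and population of greatest accessibility differed among the intervals. HH25 double-positive cells had the highest group mean at 458 intervals (51.1%, against 11.8% of all intervals) and HH25 E2-only cells at 103 (11.5%, against 11.1%), an order the rule favours. HH18 E2-only cells had it at 177 (19.7%, against 26.0%), HH18 double-positive cells at 147 (16.4%, against 20.7%) and HH18 double-negative cells at 12 (1.34%, against 13.2%). A set defined at HH25 thus also held intervals that were most accessible in crest cells at HH18, though in smaller shares than the table. The lowest group mean was in HH25 double-negative cells at 447 intervals (49.8%, against 17.3%), in HH18 E2-only cells at 296 (32.999%, against 24.7%), in HH18 double-negative cells at 108 (12.0%, against 12.2%) and in HH18 double-positive cells at 46 (5.13%, against 19.0%).

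The HH18 E2-only libraries, set against HH18 double-negative cells, asked what the second crest population looked like at the early stage. Of the 880 tested intervals, 182 (20.7%) were more accessible in HH18 E2-only cells and 71 (8.07%) less accessible by edgeR's quasi-likelihood test at an adjusted p below 0.05 over all 134020 intervals tested. Over all tested intervals the shares called were 19.9% higher and 14.8% lower. The share called higher was near that background and is no result about these intervals, while the share called lower was below it. The median log2 fold change was -0.04, with quartiles of -0.85 and 0.92, beside -0.00 over all intervals. The double-negative libraries of this comparison also set the rule's HH18 ratio, which was not allowed below 0.67, so the 2 shares are not fully independent of the choice. Without reference to the test, all 3 HH18 E2-only libraries lay above all 3 double-negative ones at 198 intervals (22.1%, against 22.8% of all intervals) and below them at 113 (12.6%, against 17.7%). With library totals in place of TMM scaling the split was 152 higher and 109 lower, the median of all intervals then standing at -0.23. Without HH18 double-negative replicate 2, the shallowest library, it was 173 and 68. Leaving out replicate 1 or 3 of that group moved it more, to 134 and 72 or to 147 and 46.

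At HH18 E2-only cells were called below double-positive cells more often than above them at full depth. Of the 880 intervals, 108 (12.3%) were higher and 202 (23.0%) lower in HH18 E2-only than in HH18 double-positive cells, against 17.9% and 17.7% of all tested intervals, and the median log2 difference was -0.54, beside -0.00 over all. All 3 HH18 E2-only libraries lay above all 3 double-positive ones at 128 intervals (14.3%) and below them at 223 (24.9%), against 21.5% and 20.2% of all intervals. After every library was thinned to the depth of the shallowest, 272 of the intervals were tested, of which 56 were called higher and 44 lower. The full-depth split of those 272 and the shares over all thinned intervals are not given, so no turn of the order is read. The median log2 difference of the 272 was -0.26, beside 0.05 over all intervals tested in thinned counts. The double-positive libraries of this comparison also set the rule's HH18 ratio, which was not allowed below 0.67. These shares are therefore not independent of the choice and are a description.

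Between the stages both crest populations gained accessibility at many of these intervals, which is described without reading a test from it because the HH25 libraries chose the set. For the same reason the stage changes of single intervals are given with their SE and without a p. Double-positive cells were higher at HH25 than at HH18 at 356 intervals (40.5%) and lower at 73 (8.30%), against 16.3% and 18.4% of all tested intervals. E2-only cells were higher at 473 (53.8%) and lower at 182 (20.7%), against 27.6% and 29.2%. Double-negative cells were higher at 42 (4.77%) and lower at 188 (21.4%), against 12.1% and 11.9%; without HH18 double-negative replicate 1 only 130 intervals were called in either direction. The log2 changes had medians of 0.74 for double-positive, 1.13 for E2-only and -0.48 for double-negative cells.

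These changes combined into several courses. The most frequent, at 282 intervals (32.0%, against 6.32% of all tested intervals), was higher at HH25 in both crest populations with no call in double-negative cells. A further 130 (14.8%, against 9.70%) were higher in E2-only cells alone. The 25 (2.84%, against 3.67%) higher in double-positive cells alone and the 41 (4.66%, against 5.54%) higher in all 3 populations were near the background. Those 2 shares are no result about these intervals. At 167 intervals (19.0%, against 11.2%) neither crest population was higher at HH25 while the double-negative cells were lower, and 49 of these (5.57% of the tested intervals, against 4.73%) were lower in all 3 populations. No population was called at 137 (15.6%, against 29.0%). The rule asked for a double-positive over negative ratio of at least 2 at HH25 and below 2 at HH18. A rise of the mean in double-positive cells or a fall in negative cells was thus built in. The set held intervals of both kinds, and their shares are a description.

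How E2-only cells changed went with where they stood at HH18, in the set as in the table. Of the 182 intervals higher in HH18 E2-only than in HH18 double-negative cells, 149 (81.9%) were lower and 4 (2.20%) higher in HH25 than in HH18 E2-only cells, against 87.9% and 0.608% of all intervals called higher in the HH18 comparison. Their median levels were 5.89 CPM in HH25 double-positive, 4.52 in HH25 E2-only and 1.73 in HH25 double-negative cells, and 11.8 CPM in HH18 E2-only, 6.23 in HH18 double-positive and 3.91 in HH18 double-negative cells. Of the 71 lower ones, 60 (84.5%) were higher in HH25 than in HH18 E2-only cells and 0 lower, against 61.9% and 2.30% of all intervals called lower, with median levels of 5.65 CPM in HH25 and 1.71 in HH18 E2-only cells. Of the 627 not called at HH18, 409 (65.2%, against 28.0%) were higher at HH25. The HH25 E2-only libraries also chose the set, so these shares are a description. The HH18 E2-only libraries enter both comparisons, so a high value there lowers one change as it raises the other, and no correlation is given.

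**Figure D3:**
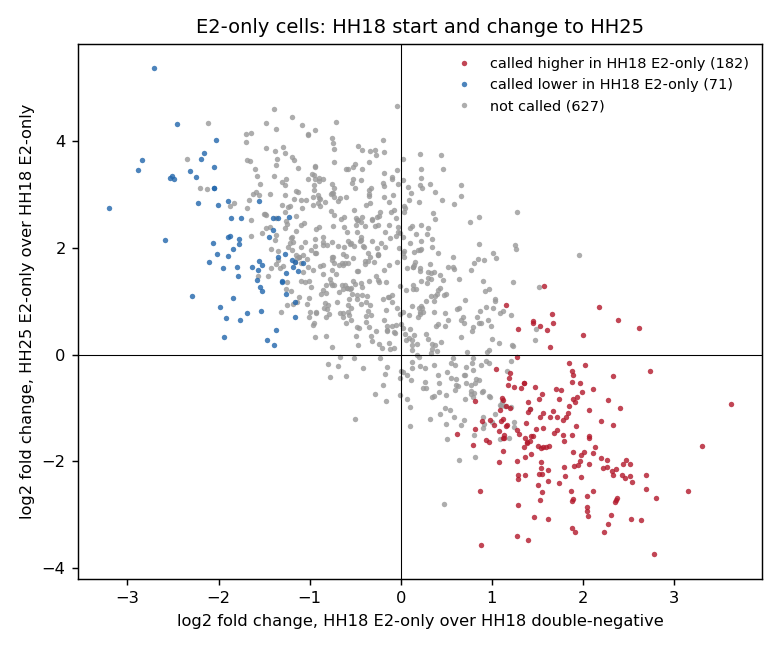
Each point is 1 of 880 intervals, placed by its log2 fold change of HH18 E2-only over HH18 double-negative cells (horizontal) and of HH25 over HH18 E2-only cells (vertical), coloured by the HH18 call. The 182 red points lie mostly below the zero line and the 71 blue points lie above it; both axes contain the HH18 E2-only libraries.

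Of the 6 intervals with the largest calls above HH18 double-negative cells, the clearest early peak was chr3:72055075-72055275. It had 47.6, 37.3 and 50.1 CPM in HH18 E2-only cells, against 4.60, 4.10 and 9.48 CPM in HH18 double-positive and 6.17, 5.01 and 7.87 CPM in HH18 double-negative cells. At HH25 it had 1.13, 3.24 and 6.16 CPM in double-positive and 5.43, 3.21 and 1.35 CPM in E2-only cells, against 1.81, 0.398 and 0.934 CPM in double-negative cells. All HH18 E2-only libraries lay far above every other library, and the HH25 levels of E2-only and double-positive cells overlapped. The log2 fold change over HH18 double-negative cells was 2.77 (SE 0.29, adjusted p = 1.1e-13), and E2-only cells were lower at HH25 than at HH18 by a log2 change of -3.75 (SE 0.28). Both HH25 crest groups overlapped the HH25 double-negative group, whose highest library had 1.81 CPM.

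The interval chr1:148162198-148162398 was likewise far more accessible in E2-only cells at HH18 than at HH25. It had 30.5, 36.0 and 34.8 CPM in HH18 E2-only cells, against 6.70, 6.01 and 3.42 CPM in HH18 double-negative cells, with a log2 fold change of 2.64 (SE 0.31, adjusted p = 6.9e-12). In HH25 E2-only cells it had 3.13, 2.61 and 6.07 CPM, below every HH18 E2-only library and overlapping the 2.97, 0.598 and 1.87 CPM of HH25 double-negative cells. The interval chr2:118144174-118144374 had 21.9, 22.6 and 24.1 CPM in HH18 E2-only cells, against 4.02, 2.00 and 3.42 CPM in HH18 double-negative cells, a log2 fold change of 2.69 (SE 0.35, adjusted p = 2.7e-10). It had 3.76, 6.22 and 4.27 CPM in HH25 E2-only cells, again with no overlap between the stages. At chr1:3527856-3528056 the HH18 E2-only libraries held 24.1, 27.3 and 22.2 CPM and the HH18 double-negative ones 2.68, 8.01 and 2.74 CPM, and at chr4:67092316-67092516 they held 13.6, 9.97 and 14.2 CPM and 1.61, 1.001 and 1.37 CPM. None of these HH18 groups overlapped. At HH25 the double-positive cells of chr1:3527856-3528056, with 7.54, 2.16 and 2.05 CPM, overlapped the negative cells with 2.31, 0.797 and 0.700 CPM. The E2-only cells of chr4:67092316-67092516, with 1.04, 2.41 and 3.15 CPM, overlapped the negative cells with 1.32, 0.797 and 0.467 CPM. Of the intervals in this paragraph, only chr1:3527856-3528056 was called higher in HH25 E2-only than in HH25 double-negative cells, a contrast of the rule.

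The interval chr4:22286714-22286914 had 8.14, 13.4 and 10.4 CPM in HH18 E2-only cells, against 1.07, 1.001 and 0.342 CPM in HH18 double-negative cells (adjusted p = 2.5e-08). The double-negative levels stand for 4, 1 and 1 counts, so no fold is given. At HH25 it had 6.03, 3.60 and 4.36 CPM in double-positive and 5.43, 5.02 and 5.40 CPM in E2-only cells, against 0.990, 1.20 and 2.10 CPM in double-negative cells. Both HH25 crest groups lay above the negative group without overlap, and E2-only cells were lower at HH25 than at HH18 by a log2 change of -0.93 (SE 0.30). The calls of all 6 in the HH18 comparison held in all 18 repeats that left out 1 library.

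The 6 intervals with the largest calls below HH18 double-negative cells showed E2-only cells near the floor at HH18. At each of them at least 1 HH18 E2-only library held fewer than 3 counts, so the size of these changes is uncertain. At chr3:109885843-109886043 the HH25 levels were 14.0, 10.8 and 16.4 CPM in double-positive and 14.4, 16.9 and 14.6 CPM in E2-only cells, against 4.45, 4.18 and 5.60 CPM in double-negative cells. At HH18 they were 1.28, 0.867 and 2.22 CPM in E2-only cells and 15.1, 9.69 and 16.8 CPM in double-positive cells, against 9.12, 8.01 and 8.55 CPM in double-negative cells. The E2-only libraries thus lay below all others at HH18 and among the highest at HH25, while double-positive cells overlapped between stages. The log2 fold change of HH18 E2-only over HH18 double-negative cells was -2.49 (SE 0.44, adjusted p = 2.0e-06), and that of HH25 over HH18 E2-only cells was 3.30 (SE 0.36). In counts thinned to the shallowest library the HH18 difference was not called (adjusted p = 0.102).

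At chr1:167999488-167999688 HH18 E2-only cells had 1.12, 0.434 and 0.665 CPM, against 8.58, 4.01 and 4.10 CPM in HH18 double-negative cells, a log2 fold change of -2.84 (SE 0.56, adjusted p = 1.7e-05). Those HH18 E2-only levels stand for 7, 1 and 3 counts. HH25 E2-only cells there had 13.6, 8.63 and 10.3 CPM, all above the HH18 ones. At chr7:26576048-26576248 HH18 E2-only cells had 0.639, 2.60 and 0.222 CPM, against 4.56, 7.01 and 4.79 CPM in HH18 double-negative cells, which gives a log2 change of -2.51 (SE 0.59, adjusted p = 0.00031). The HH18 E2-only levels stand for 4, 6 and 1 counts. HH25 E2-only cells had 9.60, 11.6 and 5.17 CPM there. Neither pair of groups overlapped at this interval.

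At chr1:192694054-192694254 HH18 E2-only cells had 1.28, 0.867 and 2.22 CPM, against 10.7, 2.00 and 10.6 CPM in HH18 double-negative cells, where the shallowest library overlapped the E2-only range. Its log2 fold change was -2.59 (SE 0.45, adjusted p = 1.2e-06). At chrZ:67098664-67098864 the levels were 0.958, 0.434 and 0.443 CPM against 6.44, 2.00 and 2.05 CPM, and the call was lost without HH18 double-negative replicate 1 and in thinned counts (adjusted p = 0.205 and 0.292). At chr6:5298475-5298675 the HH18 E2-only counts were the lowest deposited value in all 3 libraries, so no fold is given, and the call was lost without HH18 double-negative replicate 1 or without HH18 E2-only replicate 1 (adjusted p = 0.669 and 0.0904), and in thinned counts (adjusted p = 0.473). This interval had 14.0, 22.0 and 13.9 CPM in HH25 double-positive and 10.9, 11.8 and 9.67 CPM in HH25 E2-only cells, against 5.44, 4.38 and 3.50 CPM in HH25 double-negative cells.

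**Figure D4:**
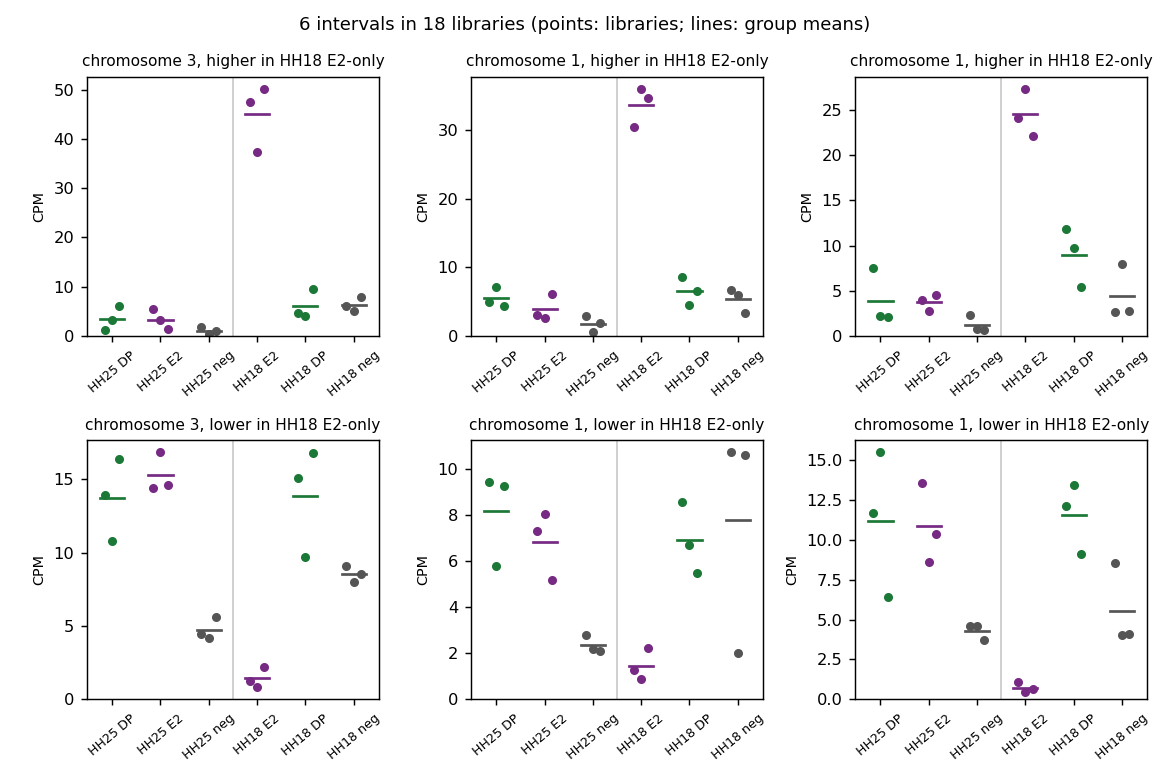
CPM in each library (points) and group means (lines) for 6 of the 12 intervals named for their HH18 E2-only call, the 3 with the widest CPM gap above (top) and the 3 with the widest gap below (bottom) HH18 double-negative cells; DP, E2 and neg are the 3 sorted populations, and each panel has its own linear axis from 0. From left to right the starts are 72055075, 148162198 and 3527856 (top) and 109885843, 192694054 and 167999488 (bottom); the HH18 E2-only points reach 50.1 CPM in the top panels and lie between 0.434 and 2.22 CPM in the bottom ones.

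The intervals with the highest HH25 crest levels were not all late-opening. The highest, chr5:17398333-17398533, had 39.2, 40.0 and 36.4 CPM in HH25 double-positive and 27.8, 24.1 and 28.8 CPM in HH25 E2-only cells, against 9.57, 13.9 and 11.7 CPM in HH25 double-negative cells. At HH18 it had 10.2, 12.1 and 5.76 CPM in the E2-only cells and 42.4, 43.2 and 41.2 CPM in the double-positive cells, against 14.8, 31.0 and 20.5 CPM in double-negative cells. Double-positive cells were thus high at both stages, and E2-only cells were below the negative cells at HH18 without overlap (log2 fold change -1.13, SE 0.26, adjusted p = 0.00033) and higher at HH25 than at HH18 (log2 change 1.56, SE 0.23).

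The interval chr2:140874914-140875114 showed the widest gain in E2-only cells of the 6 highest. It had 24.6, 26.7 and 28.3 CPM in HH25 and 2.24, 2.17 and 1.77 CPM in HH18 E2-only cells (log2 fold change 3.66, SE 0.30). HH18 double-negative cells had 10.2, 6.01 and 10.3 CPM, so HH18 E2-only cells lay below them (log2 fold change -2.20, SE 0.39, adjusted p = 2.0e-06). Double-positive cells had 42.6, 32.4 and 37.2 CPM at HH25 and 17.7, 17.9 and 12.0 CPM at HH18, without overlap between the stages.

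The other 4 of the 6 differed in course. At chr3:31290787-31290987 HH18 E2-only cells, with 49.8, 45.1 and 43.0 CPM, lay above HH18 double-negative cells with 24.1, 28.0 and 15.7 CPM (log2 fold change 1.09, SE 0.21, adjusted p = 7.2e-06), and all 3 populations were lower at HH25 than at HH18. At chr2:49765069-49765269 and chr3:59551866-59552066 E2-only cells were higher at HH25 than at HH18, with log2 changes of 2.41 and 1.67 (SE 0.26 and 0.25), and HH18 E2-only and double-negative cells overlapped. An interval on an unplaced contig, at 5079 to 5279, was lower in HH18 E2-only than in HH18 double-negative cells by a log2 change of -1.18 (SE 0.36, adjusted p = 0.0085), a call lost without HH18 E2-only replicate 1 or HH18 double-negative replicate 3 (adjusted p = 0.0600 and 0.124). The rule bounded the ratio of HH18 double-positive over double-negative cells. Its log2 values at the 4, in the order given, were 1.15, 1.46, 1.17 and -0.03 (SE 0.21, 0.31, 0.31 and 0.34). At chr3:31290787-31290987 the E2-only difference from double-negative cells was also 1.09 at HH25 (SE 0.21).

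Among the 6 intervals most clearly separated from negative cells at HH25, chr2:128175325-128175525 was low in all 3 populations at HH18. It had 21.5, 17.6 and 17.5 CPM in HH25 double-positive and 17.1, 22.3 and 17.8 CPM in HH25 E2-only cells, against 6.76, 5.98 and 4.90 CPM in HH25 double-negative cells. At HH18 it had 1.12, 1.73 and 2.44 CPM in the E2-only cells and 0.985, 2.61 and 1.09 CPM in the double-positive cells, against 1.34, 2.00 and 1.37 CPM in double-negative cells. The 3 HH18 groups overlapped, and every HH25 library lay above every HH18 one. Double-negative cells were also higher at HH25, by a log2 change of 2.02 (SE 0.51), beside 3.58 for the double-positive and 3.47 for the E2-only cells (SE 0.41 and 0.34).

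The interval chr1:115762750-115762950 had, at HH25, 17.3, 11.2 and 16.2 CPM in double-positive and 11.3, 7.62 and 10.6 CPM in E2-only cells, against 0.495, 1.20 and 1.87 CPM in double-negative cells. At HH18 it had 6.23, 7.37 and 6.20 CPM in E2-only cells, all above the 2.41, 1.001 and 2.74 CPM of double-negative cells, at a log2 change of 1.45 (SE 0.46, adjusted p = 0.0098), a call lost without HH18 double-negative replicate 1 and in thinned counts (adjusted p = 0.0613 and 0.0579). At chrZ:65779062-65779262 the crest difference at HH25 came with lower double-positive and double-negative levels than at HH18. It had 10.6, 14.4 and 14.4 CPM in HH25 double-positive and 22.7, 20.9 and 17.5 CPM in HH18 double-positive cells, and 4.62, 4.18 and 4.43 CPM in HH25 and 15.6, 15.0 and 13.7 CPM in HH18 double-negative cells. E2-only cells there had 11.5, 14.6 and 14.2 CPM at HH25 and 3.35, 5.20 and 3.10 CPM at HH18, a gain of 1.88 on the log2 scale (SE 0.30). The intervals chrZ:21750516-21750716, chr2:1882896-1883096 and chr2:52840720-52840920 also were higher in HH25 than in HH18 E2-only cells, with log2 changes of 2.87, 3.78 and 2.67 (SE 0.37, 0.47 and 0.45). Their HH18 E2-only counts were 13, 2 and 8 at the first, 6, 1 and 2 at the second and 6, 2 and 8 at the third. These lie in part below the floor of 3 counts, so the size of the changes is uncertain.

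A stage-by-population model asked whether the E2-only difference from negative cells was itself larger at HH25 than at HH18. It was larger at 250 of the 880 intervals (28.4%, against 8.59% of all tested intervals) and smaller at 11 (1.25%, against 9.59%), with a median log2 interaction of 1.43. The HH25 side of this difference was fixed by the rule, so nothing is read from the count.

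Intervals that met the same HH25 conditions but fell outside the HH18 bounds show where these 897 stand. There were 1230 with an HH18 double-positive over negative ratio of at least 2 and 269 with one below 0.67. In HH18 E2-only over double-negative cells, 182 of 880 were higher (20.7%) and 71 lower (8.07%), against 19.9% and 14.8% of all tested intervals. Of the 1229 tested of the first list, 357 (29.0%) were higher and 39 (3.17%) lower. Of the 267 tested of the second, 20 (7.49%) were higher and 117 (43.8%) lower. The median log2 fold changes were -0.04, 0.56 and -1.31. The lists were split by a ratio with the same HH18 double-negative libraries, so this order is a description without a test.

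By position, the 897 intervals were spread over the assembly with a different share of chromosome classes than the table. Chromosomes 1 to 5 held 514 (57.3%, against 53.2% of all intervals), 6 to 10 held 116 (12.9%, against 15.1%), 11 to 33 held 105 (11.7%, against 19.9%), Z and W held 54 (6.02%, against 5.69%) and the other contigs held 108 (12.0%, against 6.05%). Contigs outside the assembled chromosomes thus gave 1.27% of their intervals to the set, and chromosomes 11 to 33 gave 0.376%. In the early E2-only comparison the contig intervals of the set had a lower median than the tested set as a whole (-0.04). Their median log2 fold change of HH18 E2-only over HH18 double-negative cells was -0.94, beside -0.58 over all contig intervals, and 22.5% of the 71 intervals called lower there lay on contigs, against 9.67% of all intervals called lower. Of the 182 called higher 2.20% did, against 2.49% of all intervals called higher. Of the 627 not called it was 12.9%, against 5.90%. The set holds a larger share of contig intervals than the table in any case. The share among the 71 is therefore not read as a trait of the contig intervals.

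**Figure D5:**
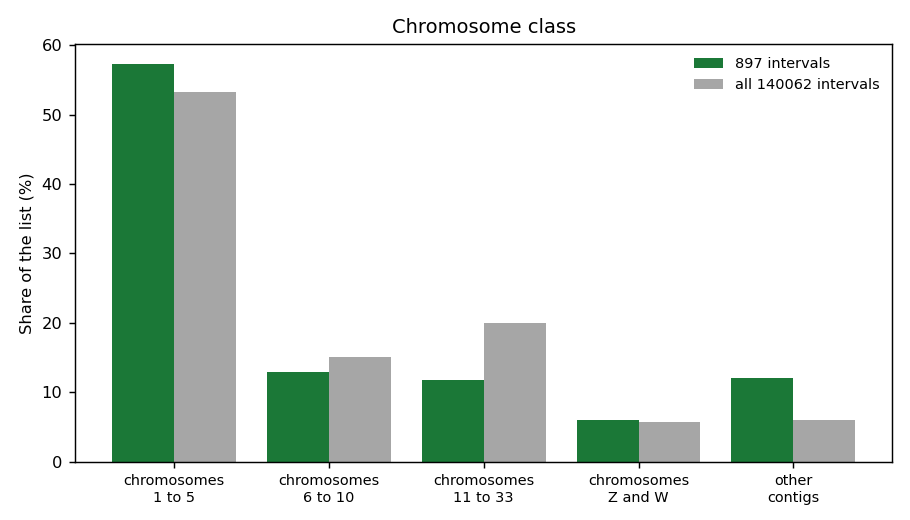
Share of the 897 intervals (green) and of all 140062 intervals (grey) in 5 chromosome classes, as bars from 0%. Contigs outside the chromosomes hold 12.0% of the set and 6.05% of the table, and chromosomes 11 to 33 hold 11.7% and 19.9%.

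The intervals seldom lay together. The median distance to the nearest other interval of the set was 369651 bp over the 803 that shared a chromosome or contig with one, 73 had another within 50 kb, 27 within 10 kb and 0 within 1 kb. The median distance to the nearest interval of the whole table was 3070 bp, against 2861 bp for all intervals. Their neighbours largely lacked the HH25 difference. The 1820 tested intervals 1 to 10 kb away had a median log2 fold change of 0.06 for HH25 double-positive over double-negative cells, the 7538 at 10 to 50 kb had 0.02, and the 123753 farther ones -0.02. The 29 within 1 kb had 0.45, of which 20.7% were called higher, against 14.5% of all tested intervals.

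Only 2 windows of 50 kb starting at an interval of the set held 4 of them. One spanned 52824601 to 52840920 on chromosome 2. Its HH25 levels in double-positive cells were 1.89, 3.96 and 8.98 CPM at the first interval, 4.15, 9.00 and 11.0 CPM at the second, 6.79, 12.6 and 6.16 CPM at the third and 3.39, 8.64 and 10.8 CPM at the fourth, so replicate 1 was lowest at 3 of the 4. At the first interval HH25 double-negative cells had 1.48, 1.99 and 1.17 CPM and HH25 E2-only cells 6.05, 1.61 and 2.92 CPM. Both crest groups overlapped the negative one there, and the HH25 E2-only difference was not called. HH18 E2-only cells ranged from 0.434 to 3.04 CPM over the 4 intervals, and all 4 were higher in HH25 than in HH18 E2-only cells, by log2 changes of 1.34, 1.89, 2.11 and 2.67 (SE 0.51, 0.43, 0.48 and 0.45). None of the 4 differed between HH18 E2-only and double-negative cells by the test (adjusted p = 0.379, 0.435, 0.139 and 0.112).

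The other window spanned 3978 to 13274 on an unplaced contig. Double-positive cells had 9.43, 10.8 and 10.0 CPM at its first interval at HH25 and 2.30, 2.61 and 4.01 CPM at HH18. E2-only cells had 7.30, 6.82 and 5.40 CPM at HH25 and 1.44, 2.60 and 4.21 CPM at HH18, again without overlap. All 4 intervals were higher at HH25 than at HH18 in both crest populations, with log2 changes of 1.30 to 1.76 in double-positive and 1.31 to 1.89 in E2-only cells. At HH25 double-negative replicate 1 had 10.6 CPM at the second interval, above the lowest double-positive library (9.73 CPM). At the fourth it had 8.91 CPM, above the lowest E2-only library (7.65 CPM). Only the third interval was called higher in HH25 E2-only than in HH25 double-negative cells, a contrast of the rule. In the 3 farther along, HH18 E2-only cells were below double-negative cells by log2 changes of -1.07, -1.16 and -1.27 (SE 0.44, 0.43 and 0.46, adjusted p = 0.047, 0.026 and 0.023). Each of these calls was also lost by DESeq2 (adjusted p = 0.116, 0.0506 and 0.0607) and in thinned counts (adjusted p = 0.286, 0.0748 and 0.303), and that of the first with median-of-ratios scaling, without the filter and with a replicate block (adjusted p = 0.0552, 0.0549 and 0.0510). Each was lost without HH18 E2-only replicate 1 and without HH18 double-negative replicate 3, and the highest adjusted p with 1 library left out was 0.774, 0.251 and 0.340. The first was also lost without HH25 double-negative replicate 3, and the last without HH18 E2-only replicate 3.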

How the data were processed

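ATAC-seq counts of 18 libraries (6 groups of 3) were analysed. The authors deposited whole-number counts per interval, described as raw per the labels. Bowtie 1.0.0, MACS2, HOMER 4.7 and galGal5 are named per the submitters' processing notes, without roles, and treatment of duplicates, mitochondrial reads and transposase offset is stated in none of the sources used here. Another 9 columns name a stage other than any in the labels and stayed out of every step, and the HH10 groups are not analysed here. Coordinates are as listed, with no statement of whether the first base is 0 or 1.

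The rule was applied in Python 3.11.15 with pandas 2.3.3. Tests used edgeR 4.0.16 in R 4.3.3 on all 18 libraries: filterByExpr kept 134020 intervals, of which 880 are members, then TMM scaling and a robust quasi-likelihood fit with 1 mean per group and Benjamini-Hochberg adjustment over all tested intervals. Adjusted p values come from this test unless another setting is named with them, and standard errors were derived from its F statistic. This version of the fit was taken after the counts of both versions had been seen, to match an earlier analysis. Alternatives were other scalings, DESeq2 1.42.0, no filter, a stricter threshold, thinning, a replicate block and leaving out each library. Members, lists and tests were chosen with earlier results of these data known.

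The named intervals are, among the tested ones, the 6 with the highest HH25 crest CPM, the 6 higher and 6 lower in HH18 E2-only against double-negative cells with the largest log2 change above the members' median abundance, the 6 most clearly separated at HH25, the members of the 2 densest windows of 50 kb and those next to the thresholds. The procedure was tested on simulated counts. An initial requirement on the share of changes recovered was not met and was dropped, so absence of a call is weak evidence at low counts. Amplified reads are not independent molecules, and the floor of 3 counts covers counting error only. A planned description of genes and motifs was not made.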

Additional observations from a re-analysis of the deposited data

Results flagged for a closer look

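The E2-only difference from double-negative cells was compared between the stages. The fitted difference was larger at HH25 than at HH18 at 250 of the 880 tested intervals (28.4%, against 8.59% of all tested intervals). It was smaller at 11 (1.25%, against 9.59%). Its HH25 side was used to choose the intervals, and the intervals named here were picked for their HH18 side, so the values below are a description and no p is given.

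Among the 12 intervals named for their HH18 E2-only call, 8 were called in that model, a count from which nothing is read. The rule held the HH25 ratio of E2-only over negative cells at 1.75 or above. A positive difference between the stages was thus built in at intervals lower at HH18. All 71 intervals of the set called lower at HH18 were called higher here, against 46.7% of all tested intervals called lower at HH18. The difference at HH25 minus that at HH18 was 4.34 on the log2 scale at chr7:26576048-26576248 (SE 0.69), 4.19 at chr3:109885843-109886043 (SE 0.52), 4.15 at chr1:167999488-167999688 (SE 0.64) and 4.09 at chr1:192694054-192694254 (SE 0.58). At chrZ:67098664-67098864 it was 3.63 (SE 0.71), and without HH18 double-negative replicate 1 it was no longer called. At chr6:5298475-5298675 the fitted value was 3.96, which is no bound because the HH18 E2-only counts were all at the lowest deposited value, and it too was not called without HH18 double-negative replicate 1.

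It was negative, meaning a smaller difference at HH25, at chr2:118144174-118144374 (-1.70, SE 0.57) and at chr1:148162198-148162398 (-1.60, SE 0.58). These calls were lost in 7 and in 16 of the 18 repeats that left out 1 library.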

How the results depend on the processing

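For the named intervals, those next to the thresholds apart, only HH18 E2-only against double-negative cells and the interaction were repeated under other settings. In these comparisons no log2 change turned its sign with a call on either side. Their stage changes and HH25 differences were not repeated in this way. Between HH18 E2-only and double-positive cells 56 were called higher and 44 lower among the 272 intervals tested in thinned counts. At full depth it was 108 and 202 among the 880, a different set of intervals. More were called lower than higher under all other settings tried. The number of intervals found was 1348 with an offset of 0.5 CPM and 444 with 2 CPM, and 808 to 1802 with 1 library left out, the highest without HH25 double-negative replicate 1. Leaving out replicate 1, 2 or 3 in every group gave 1613, 1068 and 1144, of which 496, 449 and 457 were shared with the 897. With group medians it was 1230, of which 510 were shared with the 897. With TMM-scaled totals in the rule it was 672, of which 576 were shared (64.2% of the 897). Thinned to the lowest total, with fewer reads and 272 members tested, the calls were 101 for HH18 E2-only against double-negative cells, 100 against double-positive cells, 37 for the interaction, 140, 206 and 69 for the double-positive, E2-only and double-negative stage changes, and 175 and 52 for the HH25 crest populations, double-positive and E2-only, against negative cells. At an adjusted p below 0.01 they were 123 for the interaction, 129 for the double-negative stage change and 296 for E2-only against negative cells at HH25, which DESeq2 put at 325. The cause was not tested beyond these settings. With 1 library left out the counts in the same order as for thinning were 193 to 260, 263 to 316, 192 to 288, 373 to 445, 607 to 667, 130 to 236, 739 to 889 and 382 to 677. Library totals alone moved the median of all intervals to -0.23 in the first comparison, 0.28 for the interaction and 0.14 and 0.32 for the crest stage changes. The earlier edgeR method, added after seeing the data, gave 170 higher and 80 lower in the first comparison.

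With the replicate number as a block the counts were 258, 310, 263, 431, 652, 225, 876 and 558, all within 1.5 times those without it. The labels do not state that the numbers pair the samples. Same-number correlations, within and across stages, were -0.04 to 0.12, and 14 of 27 library and group pairs correlated best with their own number. Each HH25 E2-only library correlated best with the HH25 double-negative library of its own number (0.122, 0.075 and 0.027). Whether samples were paired cannot be settled from these values. For the named intervals only HH18 E2-only against double-negative cells and the interaction were counted over the settings. Over the repeats with 1 library left out, 61 of these calls were lost and 2 gained. The 1053 readings without change include intervals called in neither fit. Over the other settings 36 calls were lost and 2 gained, beside 444 readings without change. Depth limits the members most in HH18 double-negative replicate 2.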
